A study of Arabidopsis thaliana with 12 samples.

Results

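This account compares leaves of wild-type Arabidopsis (Col-0) that received Pseudomonas syringae pv. tomato (Pst) DC3000 carrying either of the effectors AvrRpm1 and AvrRps4 and were sampled 4 h later. Its members are the 4 libraries that the labels give as wild type with either strain, 2 for each strain, of 12 libraries in the series. Bacteria were infiltrated with a syringe at an OD600 of 0.001 into leaves of plants grown for 4 weeks, the last part in short days, and each library came from leaf discs pooled over several plants. The other 8 libraries were wild type 1 h after 100 nM of the flagellin peptide flg22 and plants of camta3-D (sr1-4d) after each of the same 3 treatments. The camta3-D plants carry a dominant mutant allele of CAMTA3, which encodes a transcription factor bound by calmodulin. No library of uninfiltrated or mock-infiltrated leaves, or of Pst without an effector gene, was analysed here, so a transcript that was higher after AvrRpm1 and one that was lower after AvrRps4 cannot be told apart. According to the study, the sequencing data came from separate, independent experiments, but the labels do not tell which library belongs to which.

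Both effectors are injected into the plant cell by the bacterium and are recognised there by nucleotide-binding leucine-rich repeat receptors. AvrRpm1 is detected by RPM1, a receptor with a coiled-coil domain at its N terminus, which monitors the membrane protein RIN4 and acts with NDR1. AvrRps4 is detected by RRS1 and RPS4, a joined pair of receptors with TIR domains, which need the lipase-like protein EDS1 together with PAD4 or SAG101 and the helper receptors of the ADR1 and NRG1 families. Recognition through RPM1 is known in Col-0 for a rapid local cell death, and recognition through RPS4 for resistance with little cell death.

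The 4 libraries held 23915253 to 25032503 counts in genes, and 20896 to 21054 genes had at least 1 count. The distance between a pair of libraries, the root mean square of the log2 differences of the 500 genes that differed most, was 1.7 for the AvrRpm1 pair and 1.71 for the AvrRps4 pair, and 2.36 to 2.59 for pairs of different strains. Gene values below are CPM, counts divided by the TMM-scaled library total and put on the usual common scale, given as replicate 1 and replicate 2. Each log2 fold change is AvrRpm1 over AvrRps4, from 2 libraries per strain. A gene was called where its Benjamini-Hochberg adjusted p in the edgeR quasi-likelihood test was under 0.05 over 19167 genes. The value after ± is an approximate standard error, the absolute log2 fold change divided by the square root of the F statistic of that test.

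In wild type, 719 genes (3.75% of those tested) differed between the strains, of which 303 (1.58%) were higher after AvrRpm1 and 416 (2.17%) were lower. These shares of all genes are the background for the counts of each list below. By more than 2-fold, 129 called genes (0.673%) were higher and 269 (1.4%) lower, and the median log2 fold change of all genes tested was 0.00291. The higher genes were led by a cell wall enzyme, genes of salicylic acid and N-hydroxypipecolate turnover and response, and the copper/zinc superoxide dismutases. Of the 12 leading lower genes, 4 belonged to the immediate-early list (AT1G35210, AT5G66650, FBS1 and PBP1) and 2 to the rapid stress factors (AT5G51190 and ERF6), both described below, and the others included a lipase, a lectin, a pirin and a ribonuclease. The number of calls depended on single libraries, as given at the end. With a library left out the direction of each of the 719 called genes stayed the same. Where the groups do not overlap, leaving out a library can hardly change it.

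**Figure D1:**
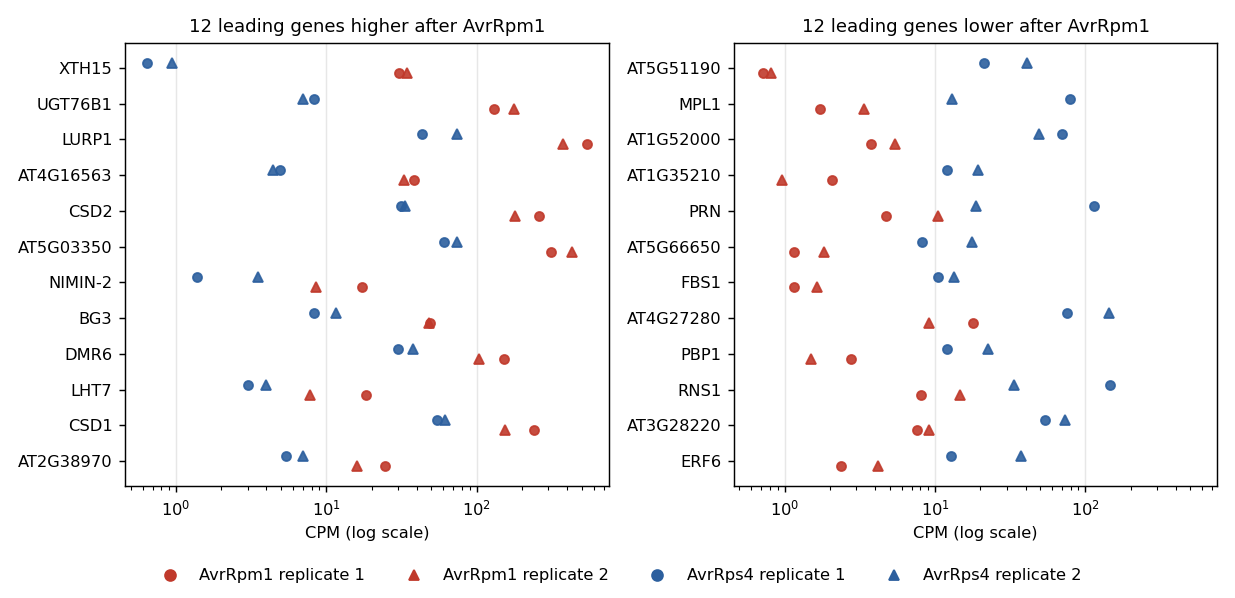
CPM on a log axis of the 12 called genes with the largest positive (left) and the 12 with the largest negative (right) log2 fold change in wild type. Each marker is 1 library, circles are replicate 1 and triangles replicate 2. The markers of AvrRpm1 and AvrRps4 do not overlap for any of these genes, which the rule that chose them required, and the AvrRps4 replicates of MPL1 stand as far apart as 79.6 and 12.9.

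XTH15 had the largest positive change among the more abundant genes. It encodes a xyloglucan endotransglucosylase/hydrolase, an enzyme that cuts and rejoins the xyloglucan chains of the cell wall. Its level was 30.3 and 34.2 CPM after AvrRpm1 and 0.643 and 0.949 after AvrRps4, a log2 fold change of 5.33 ± 0.58 (adjusted p = 0.00456). Both AvrRpm1 libraries were thus far above both AvrRps4 libraries, whose levels were near the low end of the genes tested. Of the 17 cell wall loosening genes tested, XTH15 alone was higher (5.88%, against 1.58% of all genes). The expansin genes EXPA1 and EXPA4 were lower (11.8%, against 2.17%).

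UGT76B1, a glycosyltransferase that inactivates N-hydroxypipecolate, isoleucic acid and salicylic acid, had 131 and 176 CPM after AvrRpm1 against 8.25 and 7.05 after AvrRps4. Its log2 fold change was 4.33 ± 0.37 (adjusted p = 0.00433), and it was called with any of the 4 libraries left out. LURP1, a gene known for late induction by an oomycete and for basal resistance to it, had 540 and 376 CPM against 43.3 and 74.1, a log2 fold change of 2.96 ± 0.37 (adjusted p = 0.00652). The spread between replicates of LURP1 was well inside the gap between the strains. AT5G03350, annotated as a legume lectin family protein, had 314 and 434 CPM against 60.5 and 73.6 (2.48 ± 0.31, adjusted p = 0.00652).

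The other leading genes on this side lay closer to the threshold. AT4G16563, annotated as an aspartyl protease, had 38.1 and 32.8 CPM after AvrRpm1 and 4.96 and 4.45 after AvrRps4 (2.91 ± 0.42, adjusted p = 0.00876). BG3, a beta-1,3-glucanase, had 48.6 and 48.1 CPM against 8.28 and 11.6 (2.28 ± 0.33, adjusted p = 0.00929). AT2G38970, a RING finger protein, had 24.7 and 15.9 CPM against 5.36 and 7.01 (1.72 ± 0.24, adjusted p = 0.00857). The amino acid transporter-like gene LHT7 lay closest to the threshold of the 12. Its AvrRpm1 libraries had 18.4 and 7.78 CPM and its AvrRps4 libraries 3.0 and 3.98, with an adjusted p of 0.0493, and it was called in 1 of the 4 fits that left out a library.

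Genes of salicylic acid and N-hydroxypipecolate were described as a list of 29 tested genes. Of these, 8 were higher after AvrRpm1 (27.6%, against 1.58% of all genes) and 1 was lower, with a median log2 fold change of 0.83. All 8 act in the response to these signals or in their breakdown: UGT76B1, the pathogenesis-related gene PR1, the salicylic acid receptor NPR4, the NPR1 interactor NIMIN-2, WRKY38 and WRKY62, and the salicylic acid hydroxylase genes DMR6 and AT4G10500. Among genes of salicylic acid synthesis, EDS16 and PBS3 are given as values, since neither passed the test. EDS16, the isochorismate synthase of this pathway, had 32.3 and 13.1 CPM after AvrRpm1 against 40.3 and 86.5 after AvrRps4 (log2 fold change -1.48, adjusted p = 0.129), and PBS3, which conjugates isochorismate to glutamate, had 8.32 and 2.94 against 14.9 and 37.3 (-2.21, adjusted p = 0.0607).

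PR1, a widely used marker of the salicylic acid response, was low in all 4 libraries. It had 41 and 45 counts after AvrRpm1 and 0 in both AvrRps4 libraries (adjusted p = 0.0181). That makes it at least 14.1-fold higher after AvrRpm1, with each AvrRps4 library set at a floor of 3 counts. The call for PR1 was lost with any library left out. WRKY38, a repressor of basal defence, had 5.09 and 6.47 CPM against 0.143 and 0.475 (4.21 ± 0.48, adjusted p = 0.00792) and was called with any library left out. WRKY62, its close relative, had 3.19 and 4.49 CPM against 1.07 and 0.803 (2.03 ± 0.37, adjusted p = 0.0206), and its call was lost with any library left out. The strains did not overlap for either gene, as for 26.5% of all genes tested in this direction.

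DMR6, which hydroxylates salicylic acid, had 152 and 103 CPM after AvrRpm1 and 30.1 and 37.5 after AvrRps4 (1.91 ± 0.43, adjusted p = 0.0403), and was not called with any library left out. NPR4 had 40.8 and 26.2 CPM against 8.78 and 15.6 (1.46 ± 0.26, adjusted p = 0.0186). NIMIN-2 had 17.3 and 8.53 CPM against 1.39 and 3.5 (2.40 ± 0.44, adjusted p = 0.0203). The single lower member was AT5G62570, the calmodulin-binding protein gene CBP60a, with 25.1 and 22.3 CPM against 45.9 and 59.4 (-1.15 ± 0.21, adjusted p = 0.0206). Leaving out AvrRpm1 replicate 1 or AvrRps4 replicate 1 reduced the higher calls in the list from 8 to 2, and the median of the list lay between 0.44 and 1.2 over the 4 fits that left out a library.

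The cytosolic and chloroplast copper/zinc superoxide dismutases, CSD1 and CSD2, were both among the 12 leading higher genes. These enzymes convert superoxide to hydrogen peroxide, and in Arabidopsis their transcripts are known targets of the microRNA miR398, as are those of CCS, the chaperone that loads them with copper, and of AT3G15640, a subunit of cytochrome c oxidase. miR398 is made when copper is scarce, under the factor SPL7, which also activates the copper transporter gene COPT1. The mature miR398 of the annotated loci MIR398b (chr5:4691107-4691127, TAIR10.1, plus strand) and MIR398c (chr5:4694778-4694798, plus strand), read from the RefSeq genome, is shown with its seed, bases 2 to 8, in capitals. The genes below were not chosen by a match to the seed. Both loci give the same sequence.
miR398b-3p: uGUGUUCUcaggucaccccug
miR398c-3p: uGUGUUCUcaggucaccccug
The stretches of the CSD1 and CSD2 transcripts that pair best with it are given next, with paired bases in capitals. That of CSD1 lies in the 5′ UTR across an intron (chr1:2827177-2827685, plus strand) and pairs at 17 of 21 bases. It depends on splicing: in another annotated CSD1 transcript the best stretch pairs at 14 of 21 bases, with G to U pairs at 2 of the other 7. That of CSD2 lies in the coding sequence (chr2:12015572-12015592, plus strand) and pairs at 13 of 21 bases, with G to U pairs at 3 of the other 8.
CSD1 site: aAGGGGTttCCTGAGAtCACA
CSD2 site: tgcGGGTGACCTGgGAAacat

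CSD2 had 258 and 181 CPM after AvrRpm1 against 31.2 and 33.2 after AvrRps4, a log2 fold change of 2.77 ± 0.49 (adjusted p = 0.0187). CSD1 had 240 and 154 CPM against 54.7 and 61.7 (1.76 ± 0.29, adjusted p = 0.0152). The AvrRps4 replicates of both genes lay close together, and both AvrRpm1 replicates were well above them. The other copper genes, miR398 loci and copper-related proteins were collected after the values of CSD1 and CSD2 had been seen. CCS had 79.3 and 62.7 CPM against 32.3 and 31.2 and missed the threshold (1.16 ± 0.28, adjusted p = 0.0511), and AT3G15640 had 55.6 and 56.8 against 41.6 and 46.1 (0.36 ± 0.13, adjusted p = 0.147).

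The libraries hold polyadenylated RNA, so the reads of the miR398 loci are of precursor transcripts and the mature microRNA was not measured. The MIR398c precursor was lower after AvrRpm1, with 4.09 and 4.07 CPM against 9.11 and 6.42 (-0.93 ± 0.18, adjusted p = 0.0242), and MIR398b had 1 and 1 counts against 12 and 12 (adjusted p = 0.0744). MIR398b lies inside AT5G14550 on the opposite strand, and the library kit does not mark strand, so its counts cannot be told apart from those of that gene. COPT1 was also lower, with 41.8 and 38.3 CPM against 56.4 and 57.0 (-0.50 ± 0.11, adjusted p = 0.0407). With only the libraries compared in the fit, the copper list held 0 lower calls, so neither MIR398c nor COPT1 was called. Both calls also depended on single libraries. SPL7 itself had 11.3 and 13.6 CPM against 11.6 and 13.5, and FSD1, the iron superoxide dismutase that is known to replace CSD2 when copper is low, had 229 and 283 against 309 and 418 (adjusted p = 0.306).

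With a library left out, CSD1 and CSD2 were called only without AvrRpm1 replicate 2 (adjusted p = 0.0243 and 0.041), while over the 4 fits the log2 fold change of CSD1 stayed between 1.4 and 2.04 and that of CSD2 between 2.49 and 3.0. In camta3-D the replicates of both genes overlapped between strains, with log2 fold changes of 0.22 for CSD1 (adjusted p = 0.625) and 0.47 for CSD2 (adjusted p = 0.495), whereas MIR398c was lower there as well (-1.40, adjusted p = 0.00137). The difference between the lines was not called for any of these genes.

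**Figure D2:**
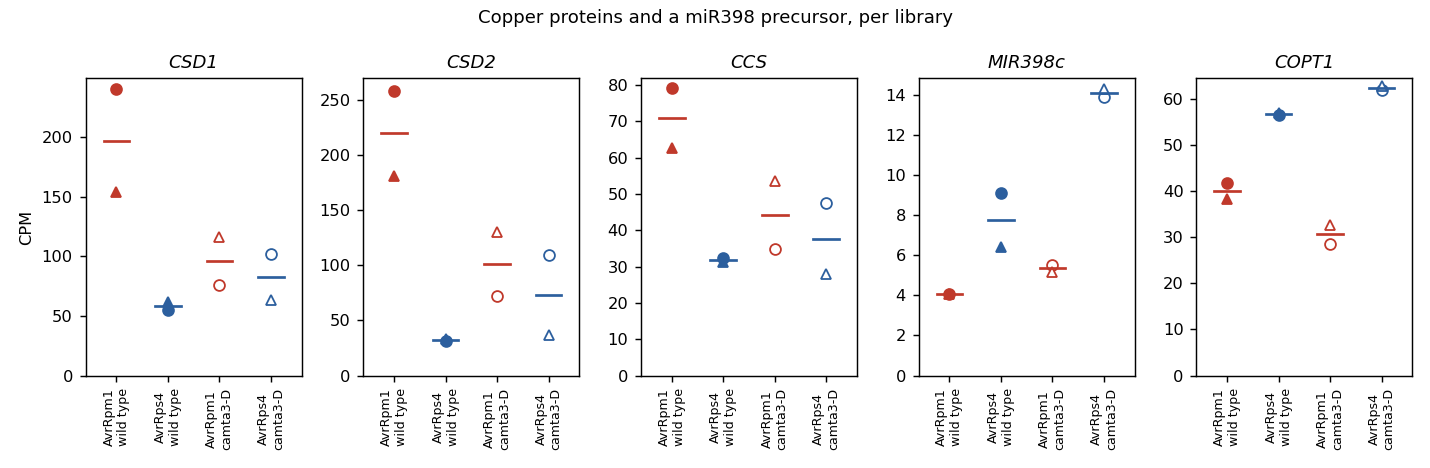
CPM of CSD1, CSD2, CCS, the MIR398c precursor and COPT1 in each Pst library, with a separate linear axis from 0 for each gene. Filled markers are wild type and open markers camta3-D, circles are replicate 1, triangles replicate 2 and bars group means. In wild type the AvrRpm1 libraries of CSD2 (258 and 181) lie above those of AvrRps4 (31.2 and 33.2), and those of MIR398c (4.09 and 4.07) lie below.

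In the other direction, the immediate-early genes held 76 of the 416 lower calls. The study took this list from other samples, as genes induced both by the coiled-coil domain of the barley receptor MLA and by cycloheximide. Cycloheximide is an inhibitor of protein synthesis. From this overlap the study proposes that these are immediate-early genes, whose response does not rely on new protein. The cycloheximide data were of seedlings in separate experiments, so the list itself does not test that. Of its 417 genes, 415 were tested. After AvrRpm1, 76 of them were lower than after AvrRps4 (18.3%, against 2.17% of all genes) and 1 was higher, AT5G44050, a MATE efflux family gene chosen for mention after its value was seen. The median log2 fold change of the list was -0.56, and 360 of 415 values were negative, whereas the median of all genes outside the list was 0.00847. Without AvrRpm1 replicate 1 the lower calls fell to 7, and without AvrRpm1 replicate 2, AvrRps4 replicate 1 and AvrRps4 replicate 2 they were 23, 62 and 22. The median stayed between -0.57 and -0.42 in all 4 of these fits.

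**Figure D3:**
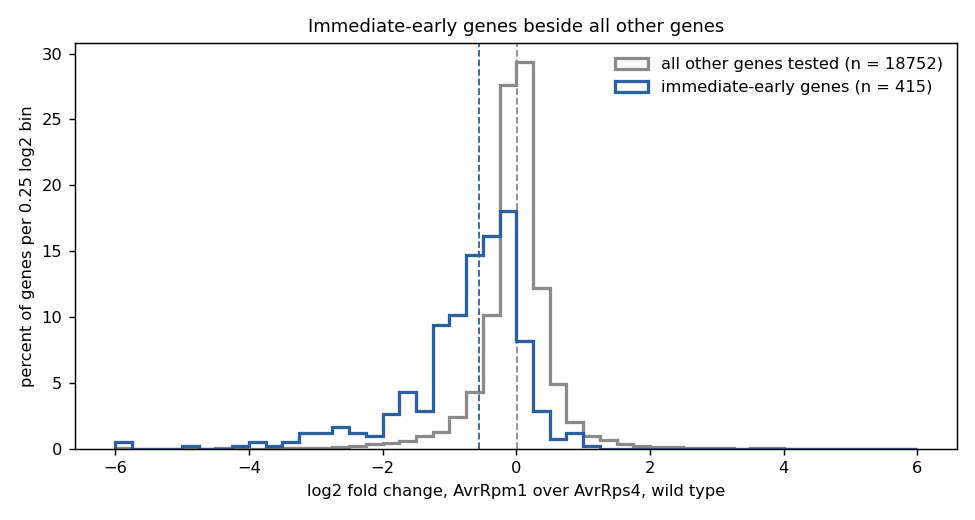
Distribution of log2 fold changes (AvrRpm1 over AvrRps4, wild type) as the percent of genes per bin, for the 415 immediate-early genes (blue) and the 18752 other genes tested (grey). Dashed lines are medians, at -0.56 for the immediate-early genes and 0.00847 for the others, so that the blue curve is set to the left of the grey one.

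AT5G51190, annotated as an ethylene response factor of subfamily B-3 and not a member of the immediate-early list, had the largest negative change of the leading genes. It had 0.717 and 0.814 CPM after AvrRpm1 against 21.3 and 41.0 after AvrRps4 (-5.34 ± 0.57, adjusted p = 0.00456) and was called with any library left out. The rapid stress factors are transcription factors known for induction within minutes of wounding, cold or elicitors. Of 20 tested, 7 were lower after AvrRpm1 (35.0%, against 2.17% of all genes) and none was higher, with a median of -1.51. Besides AT5G51190 these were ERF5, ERF6, ERF13, ERF104, STZ (ZAT10) and ATAF1.

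ERF13 had 0.323 and 0.601 CPM against 6.43 and 11.2 (-4.23 ± 0.56, adjusted p = 0.00736). ERF104, a substrate of the MAP kinase MPK6 that is released in response to flg22, had 13.3 and 10.2 CPM against 35.9 and 74.3 (-2.23 ± 0.32, adjusted p = 0.00899). ERF6 had 2.37 and 4.17 CPM against 12.7 and 37.5 (-2.94 ± 0.54, adjusted p = 0.021). The AvrRps4 replicates of these genes differed from each other more than the AvrRpm1 replicates did in CPM, with replicate 2 the higher for each. STZ, a zinc finger repressor, showed the same order of libraries, with 9.61 and 7.61 CPM against 38.4 and 71.6 (-2.67 ± 0.49, adjusted p = 0.0203). The number of lower calls in the list was 1 without AvrRpm1 replicate 1, 2 without AvrRpm1 replicate 2, 9 without AvrRps4 replicate 1 and 3 without AvrRps4 replicate 2.

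Among the immediate-early genes with the smallest p were MYC2, AT2G39650 and AT1G14480. MYC2, the main transcription factor of jasmonate signalling, had 20.6 and 27.1 CPM against 62.6 and 74.2 (-1.52 ± 0.17, adjusted p = 0.00456). AT2G39650, annotated as a DUF506 protein, had 2.72 and 2.69 CPM against 13.0 and 17.8 (-2.50 ± 0.27, adjusted p = 0.00456). AT1G14480, an ankyrin repeat gene, had 2.55 and 1.91 CPM against 10.5 and 13.7 (-2.44 ± 0.27, adjusted p = 0.00456). These 3 genes kept their call with any library left out. FBS1, a stress-induced F-box gene, had 1.15 and 1.63 CPM against 10.4 and 13.4 (-3.09 ± 0.37, adjusted p = 0.00567), and AT1G35210, an uncharacterized gene, had 2.08 and 0.955 against 12.1 and 19.3 (-3.37 ± 0.49, adjusted p = 0.00899).

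To show what lies upstream of the immediate-early genes, the 250 bases before the annotated gene start were read from the TAIR10.1 genome. The letters searched on both strands were CGCGT, which is 1 form of the site that CAMTA factors bind, and TTGACC or TTGACT, the W-box that WRKY factors bind. CGCGT was present in 69 of 417 immediate-early promoters (16.5%), against 1438 of 18591 promoters of the genes tested (7.73%) and 1886 of all 27443 protein-coding genes (6.87%). Within the immediate-early list, however, 11 of the 76 promoters of genes lower after AvrRpm1 held it (14.5%), and 58 of the 339 others (17.1%). The W-box was present in 26 of those 76 (34.2%), in 119 of the 339 (35.1%) and in 5247 of the 18591 (28.2%). Sites with the core CGTG, which CAMTA factors are also known to bind, were not counted.

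Promoters are shown for the 3 immediate-early genes with CGCGT and the smallest p, and for FBS1, a leading lower gene of the same list, which holds a W-box and no CGCGT. They are GA2OX2, a gibberellin 2-oxidase (chr1:10537207-10537456, plus strand), AT4G25390, a protein kinase (chr4:12976942-12977191, plus strand), CNGC19, a cyclic nucleotide-gated channel (chr3:6044752-6045001, plus strand) and FBS1 (chr1:22628014-22628263, plus strand). Capitals mark either motif on either strand, and the gene start follows the last base. The core CGTG, which is not put in capitals, also occurs in the windows of GA2OX2, AT4G25390 and FBS1.
GA2OX2 promoter: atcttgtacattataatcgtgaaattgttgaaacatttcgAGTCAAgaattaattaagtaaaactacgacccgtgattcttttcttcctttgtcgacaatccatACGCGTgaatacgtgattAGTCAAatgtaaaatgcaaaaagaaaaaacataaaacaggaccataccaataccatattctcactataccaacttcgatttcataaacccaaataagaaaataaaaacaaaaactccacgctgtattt
AT4G25390 promoter: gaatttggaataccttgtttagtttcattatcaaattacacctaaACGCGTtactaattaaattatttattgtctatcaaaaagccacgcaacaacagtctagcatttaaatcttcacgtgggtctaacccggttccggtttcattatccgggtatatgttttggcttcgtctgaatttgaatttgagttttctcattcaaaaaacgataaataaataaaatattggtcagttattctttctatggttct
CNGC19 promoter: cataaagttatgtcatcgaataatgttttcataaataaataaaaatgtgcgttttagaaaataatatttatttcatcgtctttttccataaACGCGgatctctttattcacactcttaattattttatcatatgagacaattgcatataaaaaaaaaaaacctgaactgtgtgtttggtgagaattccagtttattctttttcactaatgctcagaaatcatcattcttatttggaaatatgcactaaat
FBS1 promoter: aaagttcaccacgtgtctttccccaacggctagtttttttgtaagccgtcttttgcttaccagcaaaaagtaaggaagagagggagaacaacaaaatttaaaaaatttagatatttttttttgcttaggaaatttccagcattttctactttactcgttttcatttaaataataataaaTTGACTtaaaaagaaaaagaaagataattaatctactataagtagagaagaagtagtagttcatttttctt
In GA2OX2 and AT4G25390 the motif is the palindrome ACGCGT, which reads CGCGT on both strands. GA2OX2 had a log2 fold change of -1.98 (adjusted p = 0.00736), AT4G25390 of -1.64 (adjusted p = 0.00857) and CNGC19 of -3.01 (adjusted p = 0.0133). A match of letters in this window does not show that a factor binds there.

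Of 32 genes of calcium signalling tested, 6 were lower (18.8%, against 2.17% of all genes), none was higher, and the median was -0.42. The calmodulin-like AT3G29000 had 0.574 and 0.46 CPM against 8.82 and 15.2 (-4.53 ± 0.63, adjusted p = 0.00857). CNGC19, a calcium-permeable channel of the plasma membrane, had 0.789 and 0.354 CPM against 3.82 and 5.44, and CML41, a calmodulin-like protein at plasmodesmata, had 10.5 and 5.2 against 26.3 and 52.9 (-2.33 ± 0.39, adjusted p = 0.0152). CML37 and the calcium-dependent protein kinases CPK28 and CPK32 were the other lower members. Of the leading lower genes outside the list, AT4G27280 is annotated as an EF-hand protein and AT5G66650 as a calcium uniporter, and PBP1 (AT5G54490) encodes the calcium-binding PINOID-binding protein. PBP1 (AT5G54490) had 2.76 and 1.49 CPM against 12.1 and 22.4 (-3.02 ± 0.43, adjusted p = 0.0086), and AT4G27280 had 18.0 and 9.06 against 76.0 and 144 (-3.02 ± 0.48, adjusted p = 0.0125). Without AvrRpm1 replicate 1 or AvrRps4 replicate 2 the calcium list held 1 lower call, and without AvrRpm1 replicate 2 there were 0 lower calls and 1 higher.

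The receptors and kinases that act at the cell surface showed few calls. Of 39 tested, 2 were lower after AvrRpm1 (5.13%, against 2.17% of all genes) and none was higher, with a median of 0.0756. The lower calls numbered 0 to 3 with a library left out, and 1 gene was called higher without AvrRpm1 replicate 2. RBOHD, the NADPH oxidase of the immune oxidative burst, had 15.3 and 17.1 CPM against 48.7 and 79.3 (-1.98 ± 0.26, adjusted p = 0.00732). MPK3, an immune MAP kinase, had 89.0 and 67.1 CPM against 152 and 261 (-1.40 ± 0.28, adjusted p = 0.0274). MEKK1, which acts upstream of other MAP kinases, had 24.2 and 20.9 CPM against 29.9 and 33.9 and did not pass (adjusted p = 0.0639).

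The receptors that recognise the effectors, and their partners, were not called in wild type. None of 25 tested passed in either direction, and the median was 0.13. RPM1 had 20.3 and 18.0 CPM after AvrRpm1 and 12.3 and 14.8 after AvrRps4 (0.50 ± 0.17, adjusted p = 0.143). RPS4 had 26.1 and 23.9 CPM against 21.7 and 23.8 (0.14 ± 0.11, adjusted p = 0.52), and its partner RRS1 had 18.2 and 18.7 against 20.6 and 25.3 (-0.32 ± 0.12, adjusted p = 0.181). RIN4, the protein guarded by RPM1, had 33.2 and 27.8 CPM against 23 and 26.1 (adjusted p = 0.21).

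EDS1, PAD4 and ADR1-L1 overlapped between the strains. EDS1 had 84.7 and 36.0 CPM after AvrRpm1 and 62.5 and 113 after AvrRps4 (-0.54 ± 0.43, adjusted p = 0.545). PAD4 had 78.0 and 28.1 CPM against 69.3 and 149 (-1.04 ± 0.50, adjusted p = 0.284). ADR1-L1, a helper receptor, had 214 and 144 CPM against 164 and 271 (adjusted p = 0.607). In these 3 genes AvrRpm1 replicate 1 was the higher of its group and AvrRps4 replicate 2 the higher of the other. The smallest p of the list belonged to the TIR receptor gene TAO1, with 11.5 and 12.5 CPM against 16.9 and 17.0 (-0.50 ± 0.13, adjusted p = 0.0718), followed by RPS2 (AT4G26090), the receptor of another effector that acts on RIN4, with 42.0 and 32.8 against 20 and 30.2 (adjusted p = 0.135), and AT5G66900, an NRG1 helper gene, with 16.8 and 16.5 against 19.9 and 24.3 (adjusted p = 0.138).

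Across the remaining members of that list the log2 fold changes lay between -0.39 and 0.78. They were -0.0056 for the kinase gene RIPK, 0.31 for NDR1, 0.22 and 0.20 for TTR1 and AT5G45060, the paralogues of RRS1 and RPS4, and 0.74 for AT3G48080, the second EDS1 gene. SAG101 had 0.14, the helper receptors ADR1, ADR1-L2 and AT5G66910 had 0.30, -0.39 and 0.78, and the chaperone-related PBS2 (RAR1), SGT1B, SGT1A and HSP81-2 had 0.02, 0.13, -0.31 and 0.68. The ubiquitin ligases of RPM1 regulation, RIN2 and RIN3, had -0.17 and 0.05. None of these passed the test.

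None of the 6 CAMTA genes was called, although 2 were lower without AvrRps4 replicate 1. SR1 (AT2G22300), which encodes CAMTA3, had 68.2 and 59.3 CPM after AvrRpm1 and 87.0 and 122 after AvrRps4, just short of the threshold (-0.71 ± 0.17, adjusted p = 0.0525). CAMTA2 (AT5G64220) had 23.8 and 25 CPM against 28.2 and 38.3 (adjusted p = 0.117), and CAMTA1 (EICBP.B) had 50.4 and 48.4 against 59.3 and 59.3 (adjusted p = 0.236). The log2 fold changes of CAMTA4 (AT1G67310), CAMTA5 (AT4G16150) and CAMTA6 (AT3G16940) were 0.12, 0.13 and -0.19.

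Of 8 genes on the list of RT-qPCR targets, 3 were lower after AvrRpm1 (37.5%, against 2.17% of all genes). These calls depended on single libraries. DLAH, a lipase, had 1.58 and 1.41 CPM against 5.96 and 10.1 (-2.42 ± 0.44, adjusted p = 0.0203). AT4G39670, a glycolipid transfer protein gene, had 2.01 and 2.26 CPM against 7.14 and 10.7 (-2.06 ± 0.41, adjusted p = 0.0275), and CML37, a calmodulin-like gene, had 0.251 and 0.707 against 5.96 and 6.53 (-3.69 ± 0.85, adjusted p = 0.0458). CBP60G and SARD1, the transcription factors that switch on salicylic acid synthesis, did not pass. CBP60G had 31.8 and 16.8 CPM against 64.7 and 108 (-1.82 ± 0.55, adjusted p = 0.0982), and SARD1 had 81.6 and 39.9 against 56.6 and 120 (adjusted p = 0.527). TAT3, a tyrosine aminotransferase of the jasmonate response, had 50 and 46.1 CPM against 19.1 and 31.5 (adjusted p = 0.258). BON3 and the kinase gene AT5G41730 were near the limit of detection, with at most 0.511 CPM in any of the 4 libraries.

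**Figure D4:**
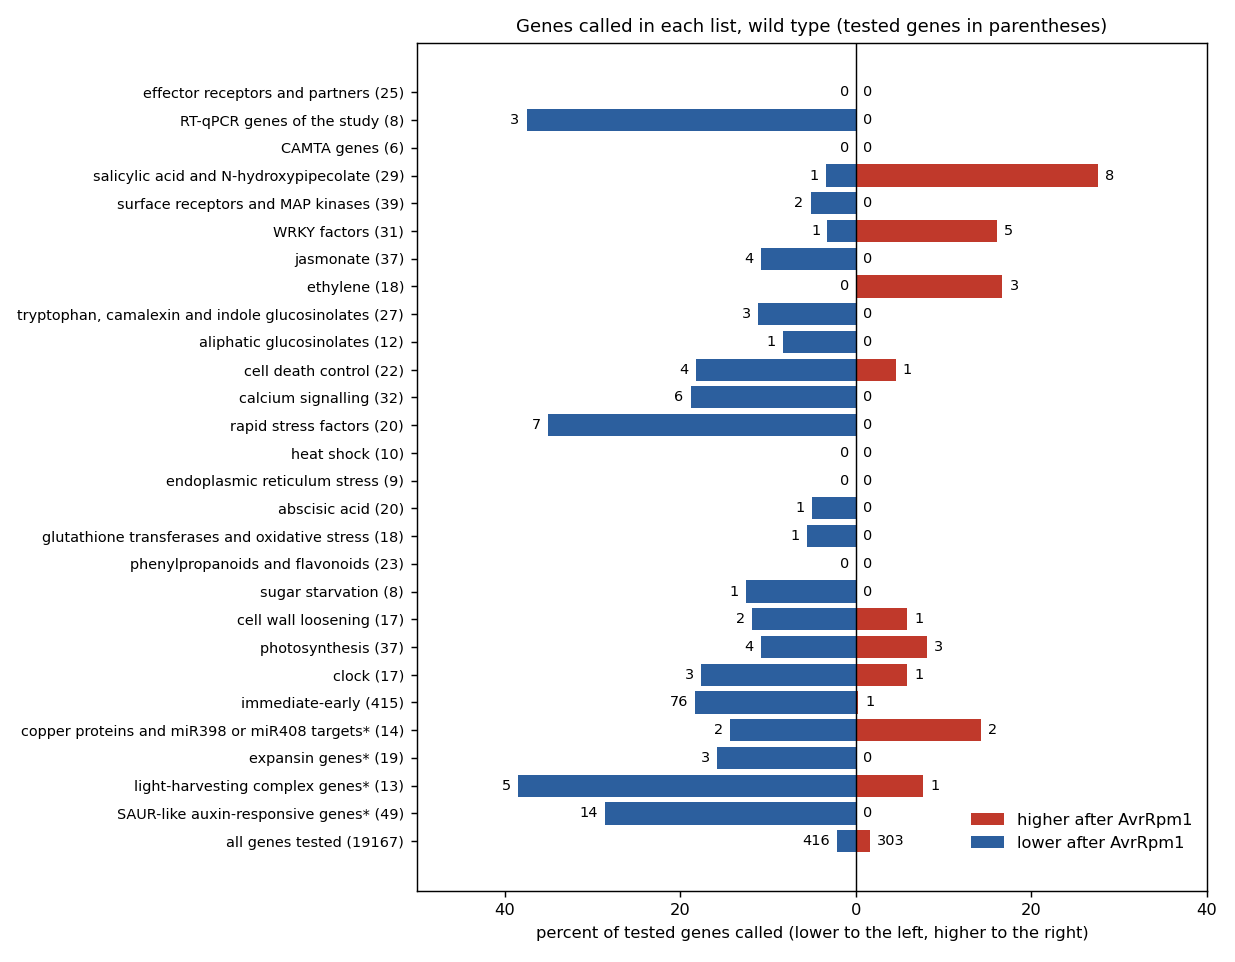
Percent of tested genes called higher (right, red) or lower (left, blue) after AvrRpm1 in wild type for each gene list, with the number called at the end of each bar, the number tested in parentheses, and all genes in the last row. Lists marked with an asterisk were collected after values had been seen. Salicylic acid and N-hydroxypipecolate leads on the right with 8 of 29 genes, and the rapid stress factors stand on the left with 7 of 20.

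WRKY transcription factors were called in both directions, with 5 of 31 higher after AvrRpm1 (16.1%, against 1.58% of all genes) and 1 lower (3.23%, against 2.17%). With a library left out the higher calls fell to 1 or 2, the lower call remained only without AvrRps4 replicate 1, and the median went from 0.50 to -0.00067 without AvrRpm1 replicate 1. WRKY25 had 51.7 and 47.9 CPM against 32.6 and 32.9 (0.60 ± 0.11, adjusted p = 0.0181), and WRKY53, a regulator of leaf senescence, had 53.5 and 36.5 against 23.5 and 21.0 (1.02 ± 0.21, adjusted p = 0.0325). WRKY17, WRKY38 and WRKY62 were the other higher members. WRKY33, which activates camalexin synthesis, was the lower one, with 32.9 and 23 CPM against 96.8 and 157 (-2.18 ± 0.45, adjusted p = 0.0312).

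Jasmonate genes had 4 lower calls among 37 (10.8%, against 2.17% of all genes) and no higher call, with a median of -0.39. With a library left out the lower calls numbered 2 to 5, and 1 gene was called higher without AvrRpm1 replicate 2. Apart from MYC2, these were AOS, an enzyme of jasmonate synthesis, and the repressor genes JAZ3 and TIFY7 (JAZ9). TIFY7 had 19.3 and 31.3 CPM against 69.9 and 59.6 (-1.36 ± 0.20, adjusted p = 0.00899) and was called with any library left out. JAZ3 had 10.3 and 15.8 CPM against 35.2 and 27.8 (-1.27 ± 0.20, adjusted p = 0.0116). The jasmonate response gene VSP1 differed mainly between the AvrRps4 replicates, at 0.643 and 12.4 CPM, and was not called.

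Ethylene genes were called in the other direction, with 3 of 18 higher (16.7%, against 1.58% of all genes) and none lower. ETR2 and ERS1 encode ethylene receptors and EBF2 an F-box protein that removes the transcription factor EIN3. ETR2 had 9.36 and 8.67 CPM against 3.46 and 2.34 (1.63 ± 0.26, adjusted p = 0.0134), EBF2 had 224 and 220 against 126 and 123 (0.83 ± 0.13, adjusted p = 0.0116) and ERS1 had 99.9 and 92.5 against 57.1 and 58.0 (0.74 ± 0.15, adjusted p = 0.0274). The replicates of these genes lay close together in both strains, but no gene of the list was called without AvrRpm1 replicate 1 or without AvrRps4 replicate 2. The receptor gene ERS2 and the kinase gene CTR1 missed the threshold by little (adjusted p = 0.0506 and 0.0507).

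In the pathways of tryptophan-derived defence compounds, 3 of 27 genes were lower (11.1%, against 2.17% of all genes) and none was higher. Without AvrRps4 replicate 1 the lower calls were 5, without any other library 0, and the median turned from -0.23 to 0.0464 without AvrRps4 replicate 2. CYP79B2, the entry enzyme of camalexin and indole glucosinolates, had 4.7 and 4.53 CPM against 11.2 and 18.9 (-1.71 ± 0.37, adjusted p = 0.0355). CYP81F2 had 11.3 and 10 CPM against 25 and 46.3 (-1.74 ± 0.39, adjusted p = 0.0415), and IGMT1 had 1.61 and 1.31 against 5.32 and 11.7 (-2.54 ± 0.52, adjusted p = 0.0306). CYP81F2 and IGMT1 modify the indole ring of glucosinolates. All 12 aliphatic glucosinolate genes tested had negative values, with a median of -1.60, but 1 was called, the transporter gene BAT5, with 1.61 and 1.38 CPM against 5.68 and 7.92 (adjusted p = 0.0498). SOT18 (adjusted p = 0.0553) and SOT17 (adjusted p = 0.0586), sulfotransferases of the last step of the core pathway, lay just above the threshold. The AvrRps4 replicates spread widely in this pathway, as for CYP79F1 with 10.8 and 43.2 CPM, and the median of the list moved to -0.72 without AvrRps4 replicate 2.

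Of 22 tested genes that control cell death, 1 was higher (4.55%, against 1.58% of all genes) and 4 were lower (18.2%, against 2.17%). Their median was -0.0234. With a library left out the calls changed, that of MC2, the higher member, among them. The median lay between -0.103 and 0.0614 in these fits. LOL1, a zinc finger protein that promotes cell death in LSD1 mutants, had 27.6 and 29.4 CPM against 79.7 and 59.2 (-1.29 ± 0.14, adjusted p = 0.00456) and was called with any library left out. BAP2, an inhibitor of cell death, had 0.287 and 0.212 CPM against 1.82 and 2.52 (-3.10 ± 0.44, adjusted p = 0.0086). NUDT7, a nucleotide hydrolase that restrains EDS1-dependent defence, had 148 and 90.9 CPM against 286 and 509 (-1.73 ± 0.34, adjusted p = 0.0242). LSD1 itself was lower by a small amount (-0.39 ± 0.09, adjusted p = 0.0491). The metacaspase gene MC2 was the higher member, with 21.6 and 19.8 CPM against 10.1 and 8.87 (1.13 ± 0.24, adjusted p = 0.0322).

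Several other lists held few or no calls. Heat shock (10 genes), endoplasmic reticulum stress (9 genes), and phenylpropanoids and flavonoids (23 genes) had none with all libraries, but without AvrRpm1 replicate 2 4 heat shock genes were called higher. In the endoplasmic reticulum list the chaperone gene SHD had 582 and 497 CPM against 343 and 337 (0.67 ± 0.24, adjusted p = 0.153), CNX1 had 406 and 277 against 249 and 217, and the stress regulator BZIP60 had 40 and 31.3 against 50.7 and 55.3. Abscisic acid had 1 lower call in 20 (5.0%, against 2.17% of all genes). The lower gene was NCED3, the main enzyme of stress-induced abscisic acid synthesis, with 8.28 and 8.67 CPM against 28.5 and 22.6 (-1.59 ± 0.31, adjusted p = 0.0237). Among 18 glutathione transferase and oxidative stress genes, 1 was lower (5.56%, against 2.17%). This was the kinase gene AGC2-1 (OXI1), with 0.0717 and 0.177 CPM against 1.32 and 1.53 (adjusted p = 0.0325). Of 8 sugar starvation genes, 1 was lower (12.5%, against 2.17%). This was ASN1, an asparagine synthetase, with 35.6 and 35.7 CPM against 115 and 75.1 (-1.41 ± 0.30, adjusted p = 0.0338). The calls for NCED3 and AGC2-1 were lost with any library left out, and that for ASN1 in all but the fit without AvrRps4 replicate 2.

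Genes of auxin-driven growth were collected after their values had been seen, so their counts are a description. Of 49 SAUR-like genes tested, 14 were lower after AvrRpm1 (28.6%, against 2.17% of all genes) and none was higher, with a median of -0.89. These small auxin-up RNAs are known to promote cell expansion. A further 31 genes of this family had too few counts to be tested. SAUR22 had 8.21 and 5.91 CPM against 17.2 and 23.4 (-1.52 ± 0.22, adjusted p = 0.00867), and AT5G18030 had 10.8 and 7.32 against 24.5 and 28.5 (-1.55 ± 0.22, adjusted p = 0.00843). Both lie among neighbouring SAUR genes of similar sequence whose reads may be shared, so these values are uncertain. With a library left out the lower calls in the family numbered 3 to 5, and the median stayed between -0.93 and -0.65.

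Expansins, proteins that loosen the cell wall, had 3 lower calls in 19 (15.8%, against 2.17% of all genes). The number of these calls depended on single libraries. EXPA1 had 40.4 and 86.2 CPM after AvrRpm1 and 331 and 159 after AvrRps4 (-1.95 ± 0.40, adjusted p = 0.03). EXPA4 had 17.2 and 15.2 CPM against 60.2 and 27.2 (-1.43 ± 0.31, adjusted p = 0.0367), and EXPA9 had 10.3 and 9.87 against 17.9 and 17.2 (-0.80 ± 0.16, adjusted p = 0.0274). For EXPA1 and EXPA4 the AvrRps4 replicates stood well apart, with replicate 1 the higher. The auxin repressor gene IAA29 was called with any library left out, at 13.9 and 9.06 CPM against 32.7 and 30.3 (-1.46 ± 0.18, adjusted p = 0.006).

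Photosynthesis genes moved both ways, with 3 of 37 higher (8.11%, against 1.58% of all genes) and 4 lower (10.8%, against 2.17%). The number of these calls depended on single libraries. The median of -0.11 lay between -0.21 and 0.0036 with a library left out. CA1, a carbonic anhydrase, had 2880 and 2710 CPM after AvrRpm1 and 1540 and 1410 after AvrRps4 (0.92 ± 0.11, adjusted p = 0.00567), and RBCS3B and GAPB of the Calvin cycle were the other higher members. The lower members were light-harvesting genes, LHCB2.1, LHCB2.2, LHCB3 and LHCB4.2. LHCB2.1 had 2490 and 2220 CPM against 4210 and 4630 (-0.91 ± 0.12, adjusted p = 0.00721). In the whole family of 13 light-harvesting genes, collected after these values were seen, 12 had negative values and 5 were lower (38.5%, against 2.17% of all genes). The number of lower calls depended on single libraries. LHCB4.3 was the exception to the negative values, with 56.4 and 67.6 CPM against 20 and 20.3 (1.62 ± 0.17, adjusted p = 0.00456). LHCB2.1, LHCB2.2 and LHCB2.3 are near-identical and may share reads, and LHCB4.3 is a distant member of its subfamily.

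Light-harvesting genes cycle with the day, and clock genes differed between the strains as well, with 1 higher and 3 lower of 17, of which 1 lower call was left without AvrRpm1 replicate 1, AvrRpm1 replicate 2 or AvrRps4 replicate 1. ELF4, an evening gene, had 51.7 and 43.8 CPM after AvrRpm1 and 14.4 and 21.0 after AvrRps4 (1.43 ± 0.26, adjusted p = 0.0206). LCL1 (RVE4), a morning gene, had 29.6 and 25 CPM against 55.6 and 54.4 (-1.01 ± 0.14, adjusted p = 0.00794), and AT3G54500, a clock-associated coactivator gene, had 37.7 and 29.0 against 78.8 and 57.1 (-1.03 ± 0.18, adjusted p = 0.0175). The morning gene PRR9 was also lower, with 3.3 and 2.26 CPM against 10.2 and 5.8. The labels give 4 h after infiltration for both strains and no clock time of sampling, and the part that time of day may have in these values was not tested.

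In a few leading lower genes the AvrRps4 libraries stood far apart, with replicate 1 the higher. MPL1, a lipase induced by aphids, had 1.72 and 3.36 CPM after AvrRpm1 and 79.6 and 12.9 after AvrRps4 (-4.18 ± 0.74, adjusted p = 0.0181). PRN, a pirin, had 4.73 and 10.4 CPM against 114 and 18.8 (-3.13 ± 0.68, adjusted p = 0.0365), and RNS1, a ribonuclease induced by wounding, had 8.03 and 14.6 against 146 and 33.3 (-2.98 ± 0.58, adjusted p = 0.025). The order of the AvrRps4 replicates was thus the reverse of that in the ERF genes. PRN and RNS1 were each called in 1 of the 4 fits that left out a library, and MPL1 in 2. By contrast, AT1G52000, a mannose-binding lectin, had 3.76 and 5.38 CPM against 69.9 and 49.3, and AT3G28220, a TRAF-like gene, had 7.56 and 9.09 against 54.2 and 73.5. Neither of these was called with a library left out (adjusted p = 0.0452 and 0.0254 with all).

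Of the 303 higher and 416 lower genes, 22 and 29 were called with any of the 4 libraries left out. Among the higher ones not named above were the abscisic acid hydroxylase gene CYP707A2, the zinc transporter gene ZIP11, the receptor-like kinase gene CRK5 and a chitinase family gene, AT2G43590. These, and the genes of the next sentences, were chosen for mention after their values were seen. CYP707A2 had 2.72 and 2.83 CPM against 0.357 and 0.402 (2.86 ± 0.38, adjusted p = 0.00757), ZIP11 had 74.7 and 48.0 against 23 and 18.7 (1.56 ± 0.20, adjusted p = 0.007), and CRK5 had 42.2 and 31.4 against 14.4 and 15.6 (1.29 ± 0.15, adjusted p = 0.00491). Among the lower ones were CIPK1, a kinase activated by calcineurin B-like calcium sensors, the homeobox gene HAT1, the ubiquitin ligase gene PUB25 and the growth regulator gene GRF3. CIPK1 had the smallest adjusted p of all genes named here, 0.00105, with 13.3 and 16.8 CPM against 65.7 and 72.9 (-2.20 ± 0.15). HAT1 had 4.41 and 7.39 CPM against 35.2 and 23.1 (-2.31 ± 0.29, adjusted p = 0.00652).

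A few called genes had no counts in a whole group. MUB5, a membrane-anchored ubiquitin-fold protein, had 42 and 55 counts after AvrRpm1 and 0 in both AvrRps4 libraries of wild type, at least 15.9-fold higher with a floor of 3 counts per library. In camta3-D it had 65 and 43 counts after AvrRpm1 and 21 and 38 after AvrRps4. The difference between the lines was not called for MUB5 (edgeR adjusted p = 0.0956). TET9, a tetraspanin and immediate-early gene, had 0 counts in both AvrRpm1 libraries and 11 and 25 after AvrRps4, at least 6.11-fold lower. AT1G07500 (SMR5), a cell cycle inhibitor gene, and AT4G37290, an uncharacterized gene, were at least 5.59-fold and 5.44-fold lower after AvrRpm1 in the same way.

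The same comparison in camta3-D shares no library with that in wild type and is given beside it. In camta3-D 2006 genes (10.5%) were higher and 2377 (12.4%) lower after AvrRpm1, of which 659 (3.44%) and 869 (4.53%) differed by more than 2-fold. Of the 303 genes higher in wild type, 274 (90.4%) had the same sign in camta3-D and 182 (60.1%) were called in the same direction. Of the 416 lower genes, 381 (91.6%) had the same sign and 300 (72.1%) were called in the same direction, and of the 76 lower immediate-early genes 75 and 70. Across all 19167 genes the Pearson correlation of the fold changes was 0.433, as a description of points that are not independent.

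**Figure D5:**
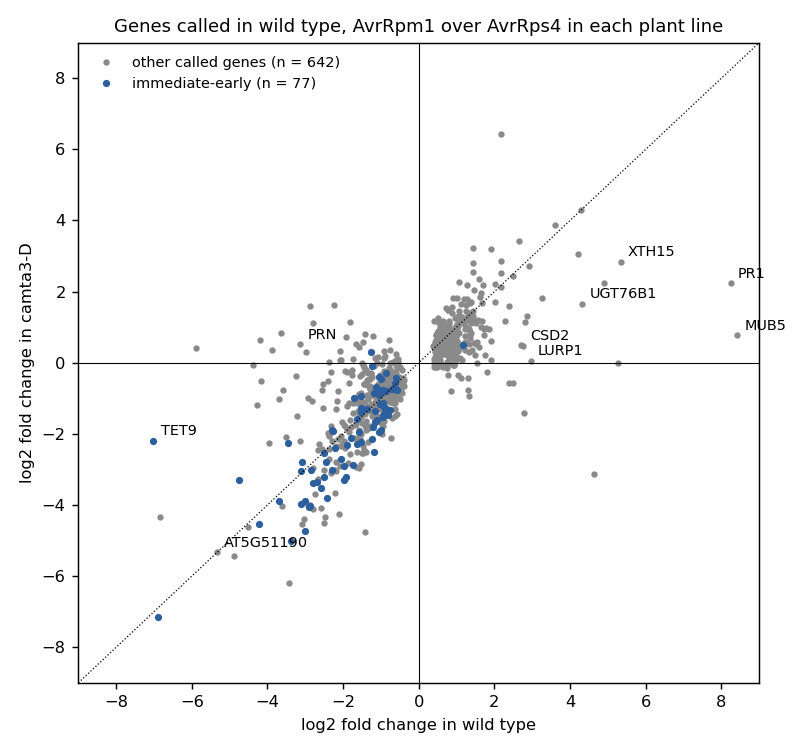
Log2 fold change (AvrRpm1 over AvrRps4) in wild type on the x axis and in camta3-D on the y axis for the 719 genes called in wild type, with immediate-early genes in blue and the dotted line marking equal values; positions of genes with no counts in a group, such as PR1, MUB5 and TET9, depend on the prior count. Most points lie in the lower left or upper right, as for AT5G51190 at -5.34 and -5.33. LURP1 lies near the horizontal line at 2.96 and 0.06, with at most 1.5 CPM in the camta3-D Pst libraries.

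Some genes that led in wild type had no call in camta3-D. LURP1 had a log2 fold change of 0.06 there (adjusted p = 0.956), AT5G03350 of -0.58 (adjusted p = 0.302) and MPL1 of -0.53 (adjusted p = 0.645). All were low after both strains in camta3-D. LURP1 had 0.887 and 1.5 CPM after AvrRpm1 against 1.26 and 1.01 after AvrRps4, and AT5G03350 had 2.27 and 2.45 against 4.43 and 2.59. MPL1 had 2.41 and 3.72 CPM against 4.58 and 4.21. None of these had a called difference between the lines. That difference was called for 4 genes of 19167 (0.0209%), 3 with a positive (0.0157%) and 1 with a negative value (0.00522%), although 2981 had an unadjusted p under 0.05. NAP, a transcription factor of leaf senescence, was higher after AvrRpm1 in wild type, with 53.5 and 47.2 CPM against 19.2 and 21.5, and lower in camta3-D, with 15.3 and 14.7 against 24.1 and 26.7 (difference 2.07 ± 0.22, adjusted p = 0.0152). AT3G29240 (difference 1.72) followed the same order, and AT2G16630, annotated as a pollen allergen and extensin family protein, the reverse (-1.96). AT2G41640, a glycosyltransferase gene, was lower after AvrRpm1 in camta3-D with no call in wild type (1.77).

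None of 6 epidermis, 7 guard cell, 7 phloem, 5 xylem or 6 dividing cell markers was called in wild type. The summed level of the guard cell markers was 2010 and 2200 CPM after AvrRpm1 against 1640 and 1580 after AvrRps4, most of it from TGG1 (0.40 ± 0.11, adjusted p = 0.0876), and that of the epidermis markers was 1540 and 1300 against 1410 and 1610. The phloem markers summed to 633 and 520 CPM against 482 and 635, the xylem markers to 35.0 and 64.9 against 47.2 and 63.1, and the dividing cell markers to 9.36 and 11.3 against 6.07 and 7.59. For leaf mesophyll the photosynthesis list was taken, which moved both ways. It had 3 higher and 4 lower calls, 24 of 37 negative values and a median of -0.11. Its member CA1, present at high levels in all 4 libraries, was higher after AvrRpm1, as given above. The part of cell composition in these results was not tested. In such bulk samples, fewer cells of a type and less RNA per cell cannot be told apart.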

How the data were processed

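Total RNA of 12 libraries, 2 for each of 3 treatments in wild type and camta3-D, was sequenced after poly(A) selection with a kit that does not mark strand. Per the submitters' notes and methods, reads were checked with FastQC 0.11.2, aligned to TAIR10 with TopHat2 2.0.10 and counted per gene with HTSeq, whose version and strand setting are not given in the sources used here. The authors deposited raw counts, with 22769687 to 26303024 counts in genes per library. HTSeq summary lines (5.66 to 10.8% of each column) were left out. Group means of all 12 libraries were fitted with edgeR 4.0.16 (R 4.3.3, limma 3.58.1) after TMM scaling and filterByExpr (minimum count 10), and contrasts were tested with the quasi-likelihood test at an adjusted p of 0.05. Fitted folds used a prior count of 0.125. The difference between lines was an interaction contrast. The script was tested on simulated counts.

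The genes named were the 12 with the largest change in each direction among called genes with a mean log2 CPM of at least 2 and groups without overlap, the 3 genes of lowest p per list, and all effector receptors and partners, CAMTA and RT-qPCR genes. Others named within a list are its called genes or were chosen after their values were seen. Members and lists were chosen with earlier results of these data known. Cell wall, hormone and other lists were assembled by hand, and the immediate-early list is the study's, from other samples. Gene symbols and sequences are from RefSeq (TAIR10.1), whose chromosomes have the TAIR10 coordinates. Alternatives were median-ratio size factors, DESeq2 1.42.0, no filter, a replicate block, fewer libraries in the fit, no organelle genes, a stricter threshold and leaving out each library.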

Additional observations from a re-analysis of the deposited data

Results flagged for a closer look

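The effect of the strain differed between wild type and camta3-D, by a test of the difference itself, in 4 genes. NAP, a senescence factor, had a log2 fold change (AvrRpm1 over AvrRps4) of 1.30 in wild type and -0.76 in camta3-D, a difference of 2.07 ± 0.22 (edgeR adjusted p = 0.0152). AT3G29240 had 347 and 340 CPM after AvrRpm1 and 135 and 144 after AvrRps4 in wild type, and 149 and 129 against 199 and 173 in camta3-D, a difference of 1.72 ± 0.16 (adjusted p = 0.0122). AT2G16630 had 33.4 and 29.0 CPM against 68.7 and 76.4 in wild type, and 75.0 and 77.2 against 43.0 and 47.7 in camta3-D, a difference of -1.96 ± 0.19 (adjusted p = 0.0122). AT2G41640 had 17.2 and 18.9 CPM against 18.9 and 23 in wild type, and 7.85 and 7.11 against 27.8 and 31.6 in camta3-D, a difference of 1.77 ± 0.19 (adjusted p = 0.0152). No gene had a called difference without AvrRpm1 wild type replicate 1 or without AvrRps4 wild type replicate 1.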

How the results depend on the processing

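In wild type, 303 higher and 416 lower calls became 30 and 64 under the stricter threshold (adjusted p under 0.01, log2 fold change beyond 1 either way), 139 and 234 with only the libraries compared in the fit, and 687 and 777 with DESeq2. Leaving out 1 library gave 28 to 149 higher and 37 to 249 lower calls. In camta3-D the stricter threshold left 333 and 554 of 2006 and 2377, and leaving out a library 730 to 1216 and 1063 to 1488. For the difference between the lines (3 higher, 1 lower) the stricter threshold left 0 and 0, median-ratio size factors gave 5 higher, no filter 32 and 19, DESeq2 343 and 223, and leaving out a library 0 to 20 and 0 to 83. The cause of these changes was not tested.

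The deviations of same-numbered replicates from the group means correlated at -0.182 in wild type and -0.0386 in camta3-D. With 2 libraries per group, each is a single value over genes that are not independent. It cannot show whether same-numbered libraries came from a shared experiment. With a replicate block the calls were 220 and 359 in wild type, 1814 and 2185 in camta3-D and 4 and 1 for the difference. The crossed pairing, added after seeing the data, gave 621 and 897 in wild type with only the libraries compared. Of the 72 called genes brought in by the naming rules or the copper list, none changed sign in any of these fits. Where the groups do not overlap, leaving out a library can hardly turn the sign. Other called genes named above were not counted here. Genes that were not called, such as RIPK (-0.0056, and 0.00891 with the replicate block), could change sign. Fits that left 1 library in a group assume that it varies like the other groups, and 2 libraries per group limit the precision of each value.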
